A study of Homo sapiens with 4 samples.

Results

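The pyruvate dehydrogenase genes described here are 10 genes taken by symbol from a table of 28729 genes: the kinases PDK1, PDK2, PDK3 and PDK4, the phosphatases PDP1 and PDP2, and the subunits PDHA1, PDHB, DLAT and PDHX. All 10 were above the limit on low expression and were among the 12645 genes tested. RNA was sequenced from TU-177, an established line of laryngeal squamous cell carcinoma (LSCC) cells. Both groups were transduced with a lentivirus and kept under puromycin from 48 hours on, and the puromycin-resistant cells were harvested, with an shRNA against SKA3 in SKA3-KD (n = 2) and a negative control construct in NC (n = 2). The labels name no clone and do not say whether replicates were separate cultures, so that the p-values measure the spread between these samples, which may be technical.

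Values are FPKM, fragment counts scaled to exon length and library size, so that levels of different genes in a library can be compared per length. Library sizes read from the steps of the values ran from 9015054 (NC 2) to 11966128 (NC 1) fragments. SKA3 checked the labels: SKA3-KD 1 held 3.77 and SKA3-KD 2 held 4.12 FPKM, and the NC libraries held 9.40 and 9.64, with a log2 fold change (log2FC, SKA3-KD minus NC on log2(FPKM + 1)) of -1.09 and a limma adjusted p = 0.00806. Of 7 squamous epithelial markers, 5 were below 1 FPKM in every library, KRT5, KRT14, KRT6A, TP63 and CDH1, while KRT17 stood between 29.4 and 49.1 FPKM, so that the labelled squamous type is not visible in most of its defining markers. The summed squamous markers ran from 49.0 to 53.0 FPKM in NC and from 33.3 to 39.2 in SKA3-KD, with 1 of the 2 tested lower past the threshold. Most of this sum was KRT17 (45.6 and 49.1 FPKM in NC, 29.4 and 35.7 in SKA3-KD). EPCAM had 2.85 and 2.95 FPKM in NC and 2.89 and 2.73 in SKA3-KD. Of 6 fibroblast markers, 3 were below 1 FPKM throughout, with sums of 15.4 to 15.8 in NC and 8.86 to 9.56 in SKA3-KD and 1 of 3 tested lower past the threshold. These sums differed mostly in DCN (8.40 and 8.36 FPKM in NC, 2.48 and 2.35 in SKA3-KD). PDGFRB went the other way, with 2.88 and 2.46 FPKM in NC and 3.19 and 4.13 in SKA3-KD. Leukocyte and endothelial markers summed to at most 1.01 and 0.0968 FPKM in any library, with the leukocyte marker LYZ at 0 throughout. The part of the marker differences in the results was not tested. In bulk RNA, fewer cells of a type and less RNA per cell cannot be told apart.

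The pyruvate dehydrogenase complex sits in the mitochondrial matrix and turns pyruvate, the end product of glycolysis, into acetyl-CoA for the tricarboxylic acid cycle. The kinases phosphorylate its alpha subunit and switch it off, which leaves more pyruvate to become lactate, and the phosphatases take these phosphates off and switch it on again. Tumor cells that favour glycolysis often carry high levels of a kinase, and PDK1 is one of the glycolysis-related enzymes followed in the study of SKA3. In the values given here, PDK1 is the pyruvate dehydrogenase kinase and not the signalling kinase PDPK1, which is often written the same way. Which kinase the PDK1 antibody of the study binds was not checked.

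Of the 10 genes, PDK4 and PDHB fell and PDP1 rose in SKA3-KD, and 7 did not pass the test. PDK4 fell to 26.3% of its NC level, PDHB fell to 64.3%, and PDP1 rose to 161%. Among all genes tested 6.11% were lower and 6.16% higher past an adjusted p-value of 0.05 (limma on log2(FPKM + 1), Benjamini-Hochberg adjustment over all genes). The median log2FC was -0.06 over the 10 genes and 0.01 over all genes tested. NC and SKA3-KD did not overlap in 7 of the 10 genes, 4 of them lower and 3 higher in SKA3-KD, against 61.6% of all genes tested.

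The 2 genes that fell are shown with the 250 bases before their annotated starts so that their start sites can be seen beside their values. The sequences are those of RefSeq on GRCh38.p14. They lie at chr7:95596517-95596766 on the minus strand for PDK4 and at chr3:58433833-58434082 on the minus strand for PDHB. Capitals mark matches, on either strand, to ACGTG (the core of the HIF site), CCAAT (the CCAAT box), GGGCGG (the GC box), GTAAACA (a forkhead site) and AAGGTCA (a nuclear receptor half-site).
PDK4: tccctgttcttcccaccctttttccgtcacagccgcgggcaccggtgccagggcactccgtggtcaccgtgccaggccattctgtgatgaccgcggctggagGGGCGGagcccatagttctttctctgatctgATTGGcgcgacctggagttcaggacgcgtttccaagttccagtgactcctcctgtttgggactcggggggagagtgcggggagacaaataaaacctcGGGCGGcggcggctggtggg
PDHB: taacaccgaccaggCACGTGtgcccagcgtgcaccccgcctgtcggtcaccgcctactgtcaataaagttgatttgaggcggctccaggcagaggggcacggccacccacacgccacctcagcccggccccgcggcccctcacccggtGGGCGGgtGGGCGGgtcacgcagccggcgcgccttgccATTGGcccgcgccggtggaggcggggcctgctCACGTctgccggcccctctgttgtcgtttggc

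Both stretches held 2 GC boxes and 1 CCAAT box, motifs found in 42.6% and 32.0% of all 35116 such windows. ACGTG, found in 18.5% of windows, had 3 matches before PDHB, 2 of them overlapping on opposite strands of a CACGTG, and 0 before PDK4. Of the 9 genes that had a window, 7 had ACGTG in at least 1 of their windows. GTAAACA and AAGGTCA, found in 2.98% and 3.44% of windows, had no match in either stretch or in any of the 13 windows of the 9 genes that had a window. These are descriptions of the letters in the windows and not of bound factors.

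The kinases stood in the order PDK4, PDK3, PDK1 and PDK2 in every library, from the highest FPKM to the lowest. PDK4 (ENSG00000004799; chromosome 7 of GRCh38, 95583499 to 95596491) is the kinase that fasting and fatty acids induce in muscle and liver. NC 1 held 46.4 FPKM and NC 2 39.0, while SKA3-KD 1 held 11.96 and SKA3-KD 2 10.5. Both SKA3-KD libraries lay far below both NC libraries. NC averaged 42.7 ± 5.24 FPKM (SD, n = 2) and SKA3-KD averaged 11.2 ± 1.04 (SD, n = 2), so that the NC mean was 3.81 times the SKA3-KD mean. The log2FC was -1.84 (standard error, SE, 0.11, limma adjusted p = 0.00709), the 11th most negative of the 12645 genes tested. These values rest on 2510, 1589, 550 and 559 reads, in the order of the libraries above. PDK4 was lower past the threshold in all 10 alternatives with all 4 libraries. Without NC 1 and without NC 2 it had adjusted p-values of 0.0660 and 0.06005 (limma), with log2FC values of -1.71 and -1.96, and it stayed past the threshold without either SKA3-KD library.

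PDK1 (ENSG00000152256; chromosome 2 of GRCh38, 172555373 to 172608669), a kinase known to be induced by HIF-1 in hypoxia, had 3.34 and 3.19 FPKM in NC. In SKA3-KD it had 1.74 and 2.52 FPKM. Both SKA3-KD libraries were below both NC libraries, and they differed from each other by 0.36 on the log2 scale, while NC 2 differed from NC 1 by -0.05. The log2FC was -0.46 (SE 0.15) and did not pass the test over all genes (limma adjusted p = 0.111). Set against the mean of NC, SKA3-KD 1 stood at -0.64 and SKA3-KD 2 at -0.28. At this level the added pseudocount of 1 weighs on the fold change, and the ratio of the mean FPKM, NC over SKA3-KD, was 1.54. With limma voom on the recovered reads (605, 435, 267 and 449 in NC 1, NC 2, SKA3-KD 1 and SKA3-KD 2), PDK1 was lower by a log2FC of -0.65 (SE 0.13, limma adjusted p = 0.00126), in a fit that called 12.8% of all genes lower. Of 9 alternatives with all 4 libraries, voom was the 1 that passed.

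PDK3, the X-linked kinase, had 4.71 and 4.61 FPKM in NC and 4.23 and 4.499 in SKA3-KD, a log2FC of -0.08 (SE 0.08, limma adjusted p = 0.537). PDK2, a kinase expressed in most tissues, had 1.63 and 1.38 FPKM in NC and 1.45 and 1.41 in SKA3-KD, a log2FC of -0.04 (SE 0.14, limma adjusted p = 0.869). For PDK3 the libraries of the groups did not overlap by a small margin, and for PDK2 both SKA3-KD libraries lay between the NC libraries. PDK2 rested on 68 to 107 reads per library. By the same fit, 1 of the 4 kinases was lower past the threshold and 0 higher (6.11% and 6.16% of all genes tested). At an unadjusted p-value under 0.05 the kinases were 2 lower and 0 higher (limma), as with voom on the recovered reads. Over all genes tested, 15.1% were lower and 16.2% higher by the unadjusted p-value, and 12.8% and 12.5% with voom.

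**Figure D1:**
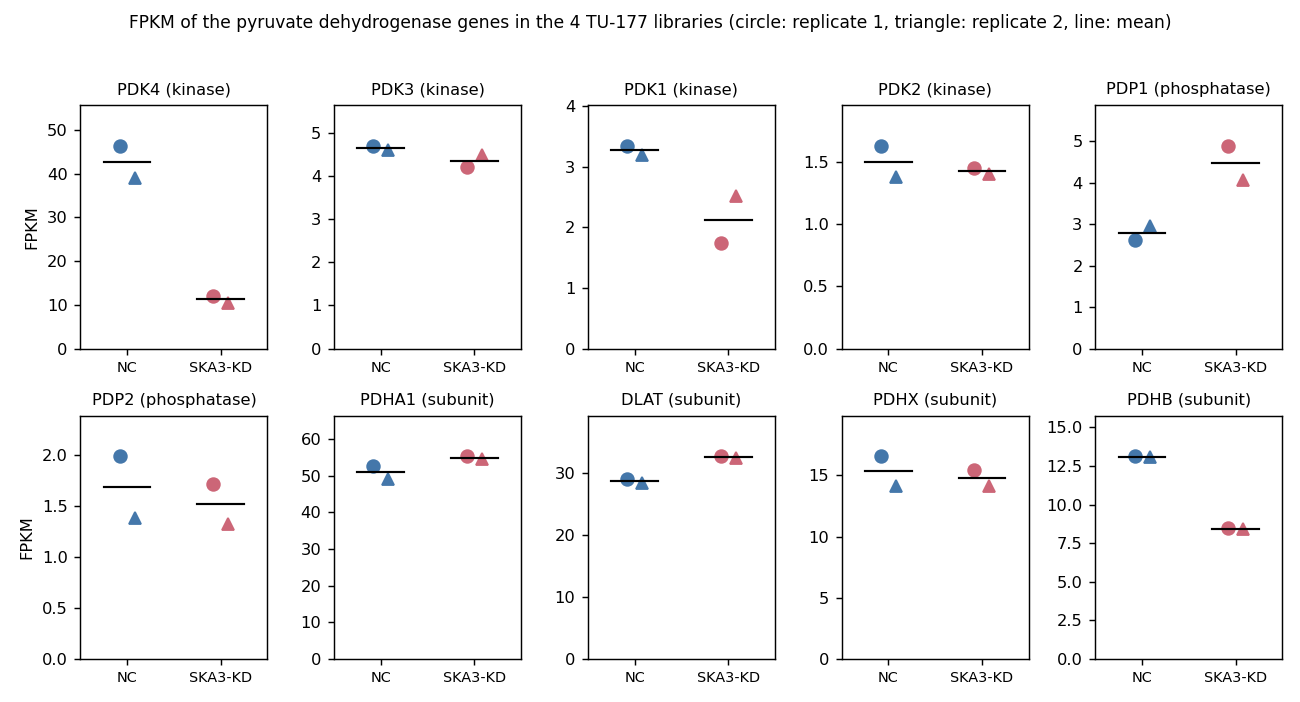
FPKM (y axis from 0, scale differing by panel) of each gene in NC and SKA3-KD, with 1 point per library and a line at the mean of n = 2. PDK4 and PDHB sit lower and PDP1 higher in both SKA3-KD libraries, while the SKA3-KD points of PDK1 lie apart at 1.74 and 2.52.

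The makeup of the kinase pool can be read within a library, since FPKM is per length. PDK4 made up 82.7% and 81.0% of the summed kinase FPKM in NC and 61.7% and 55.5% in SKA3-KD. The summed kinase FPKM was 56.1 and 48.2 in NC and 19.4 and 18.9 in SKA3-KD. The pool was thus lower in both SKA3-KD libraries, and most of that gap in FPKM was PDK4. Without PDK4 the sum of the other kinases was 9.69 and 9.18 FPKM in NC and 7.42 and 8.43 in SKA3-KD. PDK3 accounted for 8.40% and 9.57% of the pool in NC and 21.8% and 23.8% in SKA3-KD, and its own FPKM did not pass the test. These shares do not overlap between the groups, but with 2 libraries against 2 the exact two-sided permutation test cannot give a p-value below 0.333, which is its value here.

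**Figure D2:**
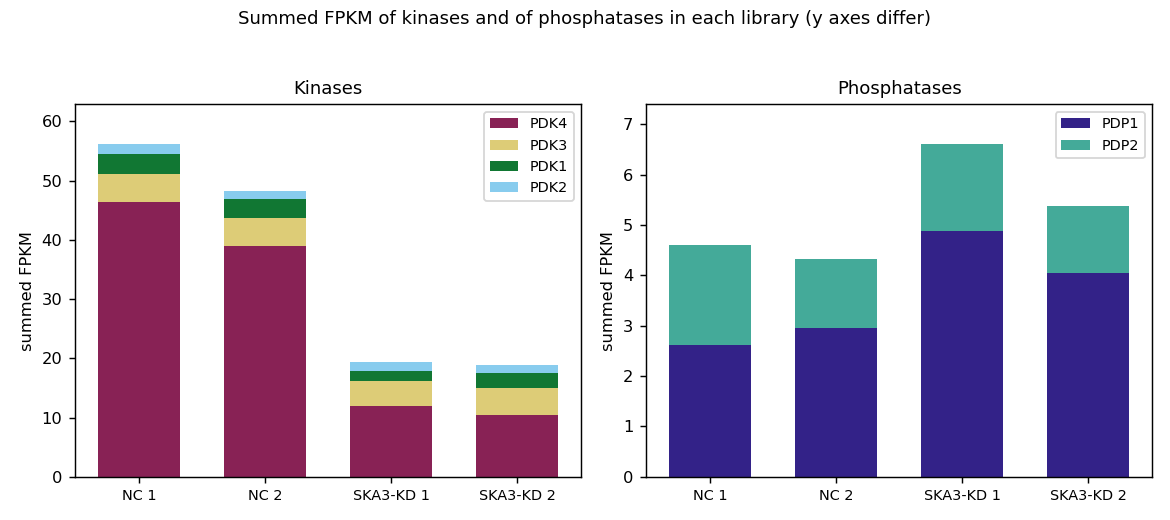
Stacked FPKM of the kinases (left) and the phosphatases (right) in each of the 4 libraries, on y axes that start at 0 and differ between the panels. The kinase bars reach 56.1 and 48.2 in NC and 19.4 and 18.9 in SKA3-KD and differ mostly in the PDK4 segment, and the phosphatase bars are 4.61 and 4.33 in NC and 6.61 and 5.37 in SKA3-KD.

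PDP1 and PDP2 are the catalytic subunits of the phosphatases that reactivate the complex, PDP1 being the form stimulated by calcium. PDP1 (ENSG00000164951) had 2.63 and 2.95 FPKM in NC and 4.89 and 4.06 in SKA3-KD, on 149 to 279 reads. Both SKA3-KD libraries were above both NC libraries. NC averaged 2.79 ± 0.230 FPKM (SD, n = 2) and SKA3-KD averaged 4.47 ± 0.592 (SD, n = 2), and the log2FC was 0.53 (SE 0.11, limma adjusted p = 0.0468). This call lies next to the threshold. Of 9 alternatives with all 4 libraries 5 kept it, and scaling by median-of-ratios (adjusted p = 0.0505), the fit without a trend (0.0662), the fit without the filter (0.142) and that with a replicate block (0.0681) did not (all limma). It was also lost with any library left out, with adjusted p-values of 0.165 and 0.113 without NC 1 and NC 2 and of 0.174 and 0.0867 without SKA3-KD 1 and SKA3-KD 2, while the log2FC ran from 0.42 to 0.64.

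PDP2, the other phosphatase, had 1.99 and 1.38 FPKM in NC and 1.71 and 1.32 in SKA3-KD. Replicate 1 was higher than replicate 2 in both groups and the groups overlapped. Its log2FC was -0.09 (SE 0.18, limma adjusted p = 0.769) and turned positive without NC 1 (0.07) and without SKA3-KD 2 (0.03). Of the phosphatases 1 rose and 0 fell, with the same counts at an unadjusted p-value under 0.05 (limma) and with voom. Among all genes tested, 6.16% rose and 6.11% fell by the adjusted p-value. These shares were 16.2% and 15.1% by the unadjusted p-value, and 12.5% and 12.8% with voom.

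Among the subunits, PDHB (ENSG00000168291; chromosome 3 of GRCh38, 58427630 to 58433857), the beta subunit of the component that decarboxylates pyruvate, was the gene that fell. Its FPKM was 13.1 in both NC libraries and 8.48 and 8.39 in SKA3-KD, on 742, 556, 407 and 467 reads. The libraries of each group lay almost together, with replicate 2 minus replicate 1 at -0.01 on the log2 scale in each group. NC averaged 13.1 ± 0.05003 FPKM (SD, n = 2) and SKA3-KD averaged 8.44 ± 0.0586 (SD, n = 2). The log2FC was -0.58 (SE 0.06, limma adjusted p = 0.0129). It stayed past the threshold in 9 of 10 alternatives with all 4 libraries, and without the filter the adjusted p-value was 0.0507. With fewer libraries the test lost it, with adjusted p-values of 0.0769 and 0.0672 without NC 1 and NC 2 and 0.0724 and 0.0684 without SKA3-KD 1 and SKA3-KD 2, at log2FC values from -0.59 to -0.57.

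PDHA1, the X-linked alpha subunit that carries the regulatory phosphorylation sites, was the highest of the 10 genes in every library. It had 52.7 and 49.2 FPKM in NC and 55.3 and 54.4 in SKA3-KD, a log2FC of 0.11 (SE 0.06, limma adjusted p = 0.302). DLAT, the acetyltransferase that forms the core of the complex, had 29.03 and 28.4 FPKM in NC and 32.8 and 32.5 in SKA3-KD. In both genes the SKA3-KD libraries lay above the NC libraries, by less than the fall of PDHB. The log2FC of DLAT was 0.18 (SE 0.06, limma adjusted p = 0.103), and it passed in 1 of 10 alternatives, a correction for length and GC content (0.21, limma adjusted p = 0.0318).

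PDHX, which anchors dihydrolipoamide dehydrogenase to the core, had 16.6 and 14.1 FPKM in NC and 15.4 and 14.1 in SKA3-KD. The groups overlapped. Its log2FC was -0.05 (SE 0.10, limma adjusted p = 0.767), which turned positive without NC 1 (0.06) and without SKA3-KD 2 (0.01). Of the 4 subunits 1 fell and 0 rose (6.11% and 6.16% of all genes tested). At an unadjusted p-value under 0.05 they were 1 lower and 1 higher (limma, against 15.1% and 16.2% of all genes tested), and with voom 1 lower and 0 higher (against 12.8% and 12.5%), and no difference of the 4 subunits from all genes is read from these counts.

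**Figure D3:**
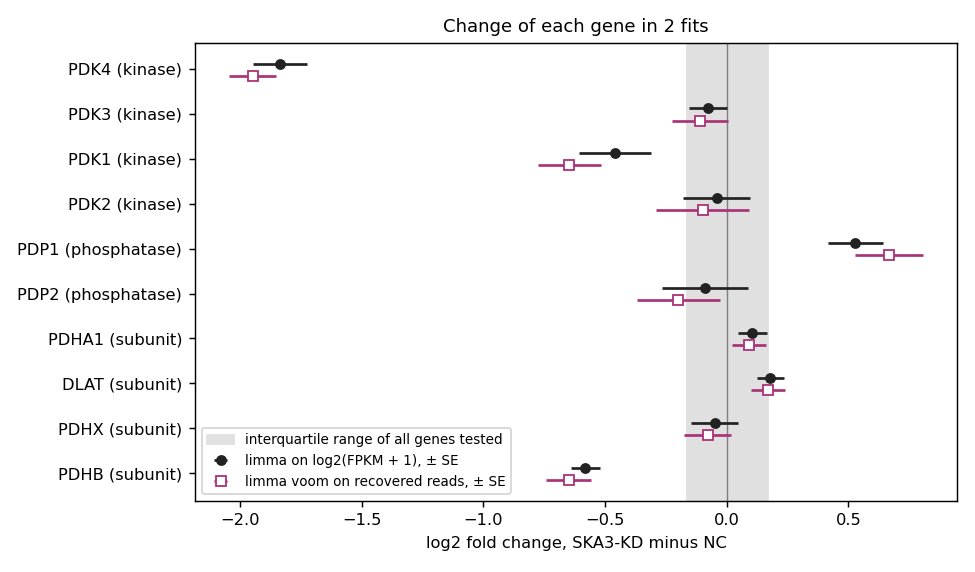
Log2FC (x axis, SKA3-KD minus NC) of each gene with its standard error, by limma on log2(FPKM + 1) (filled circles) and by limma voom on recovered reads (open squares), with the interquartile range of all genes tested (-0.16 to 0.17) in grey. PDK4 stands at -1.84 and PDHB at -0.58, PDP1 at 0.53, and PDK1 moves from -0.46 to -0.65 between the fits.

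The alpha and beta subunits join in equal numbers in the protein, and their mRNAs were set against each other in each library. The ratio of PDHA1 to PDHB FPKM was 4.01 and 3.76 in NC and 6.53 and 6.48 in SKA3-KD. DLAT to PDHB showed 2.21 and 2.17 in NC and 3.87 and 3.87 in SKA3-KD. The ratios that hold PDHB were thus higher in both SKA3-KD libraries, by 1.67 and 1.77 times on average. DLAT to PDHA1, without PDHB, was 0.551 and 0.577 in NC and 0.593 and 0.597 in SKA3-KD, a smaller gap that also did not overlap between the groups. Each of these ratios had an exact two-sided permutation p-value of 0.333, the smallest that 2 libraries against 2 allow. The summed FPKM of the 4 subunits was 111 and 105 in NC and 112 and 109 in SKA3-KD, so that the sum overlapped between the groups where its makeup did not.

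Kinases were then set against phosphatases. The summed kinase FPKM was 12.2 and 11.1 times the summed phosphatase FPKM in NC, and 2.93 and 3.52 times in SKA3-KD. Without PDK4 this ratio was 2.102 and 2.12 in NC and 1.123 and 1.57 in SKA3-KD. PDK1 to PDP1 alone was 1.27 and 1.08 in NC and 0.355 and 0.621 in SKA3-KD. Each of these ratios was lower in both SKA3-KD libraries than in both NC libraries, with an exact two-sided permutation p-value of 0.333, the smallest that 2 libraries against 2 allow. They are ratios of mRNA per exon length, so their size depends on the lengths used, and they give neither protein nor enzyme activity.

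**Figure D4:**
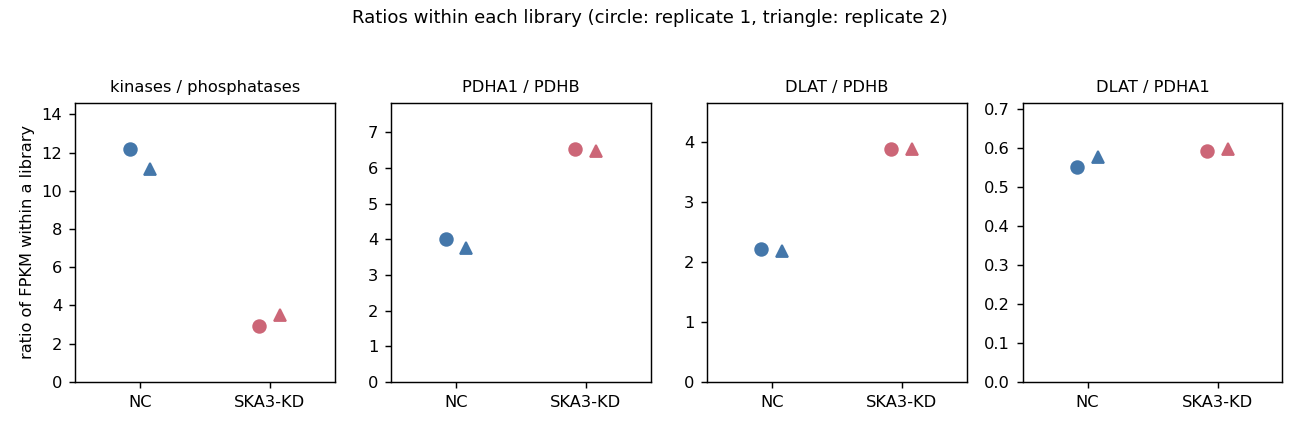
Ratios of FPKM within each library (y axes from 0), with 1 point per library. Kinases to phosphatases run from 11.1 to 12.2 in NC and from 2.93 to 3.52 in SKA3-KD. PDHA1 to PDHB and DLAT to PDHB are higher in both SKA3-KD libraries. DLAT to PDHA1 is also higher in both, by a smaller gap (0.551 and 0.577 in NC, 0.593 and 0.597 in SKA3-KD).

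DLD, dihydrolipoamide dehydrogenase, which the complex shares with its relatives, had 31.9 and 29.2 FPKM in NC and 31.6 and 29.8 in SKA3-KD. Its log2FC of 0.01 (SE 0.07, limma adjusted p = 0.947) turned to -0.0040 under median-of-ratios scaling, -0.0056 under quantile normalization and -0.0084 with voom. PDPR, the regulatory subunit of the phosphatase, had 2.11 and 2.46 FPKM in NC and 1.83 and 2.197 in SKA3-KD, a log2FC of -0.13 (SE 0.13, limma adjusted p = 0.548). Neither passed at an unadjusted p-value under 0.05 or with voom, 0 of 2 in each direction. In both genes the groups overlapped.

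Around the complex, fixed lists of genes were chosen with earlier results of these data known, so that no excess over all genes is read from them. Outside the 10, 81 of their genes were tested, and 10 fell and 6 rose past the threshold, 19.8% against 12.3% of all genes tested. Leaving out NC 1 or NC 2 gave 0 of these calls in either direction. Without SKA3-KD 1 they were 1 lower and 1 higher, and without SKA3-KD 2 they were 3 lower and 0 higher.

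The related 2-oxoacid dehydrogenases use the same chemistry on other substrates, and 2 of 6 tested were lower and 1 higher (6.11% and 6.16% of all genes tested). At an unadjusted p-value under 0.05 they were 2 lower and 2 higher (limma, against 15.1% and 16.2%). With voom 3 were lower and 2 higher (against 12.8% and 12.5%). DLST, the core enzyme of the 2-oxoglutarate dehydrogenase complex, fell from 36.3 and 35.5 to 27.5 and 26.8 FPKM (log2FC -0.39, limma adjusted p = 0.0221). DBT, the core enzyme of the branched-chain complex, fell from 4.65 and 4.44 to 3.10 and 3.10 FPKM (-0.43, limma adjusted p = 0.0352), and BCKDK, the kinase that switches that complex off, rose from 10.8 and 10.9 to 14.2 and 14.5 FPKM (0.37, limma adjusted p = 0.0265). The direction of this kinase was opposite to that of PDK4. Their cofactor lipoate is made and attached by genes of which 1 of 13 tested fell, ISCA1, an iron-sulfur assembly factor (21.9 and 18.6 FPKM in NC, 14.8 and 14.9 in SKA3-KD, -0.42, limma adjusted p = 0.0493). With a replicate block its adjusted p-value was 0.0512 (limma), which did not pass. None of the lipoate genes rose, and they were 2 lower and 2 higher at an unadjusted p-value under 0.05 and 2 lower and 0 higher with voom. Thiamine supply genes gave 0 of 2 in each direction (limma), 1 lower and 0 higher at an unadjusted p-value under 0.05 and 0 with voom.

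Of 9 genes tested for pyruvate entry and its other fates, 2 were lower and 1 higher (6.11% and 6.16% of all genes tested). At an unadjusted p-value under 0.05 they were 3 lower and 2 higher (limma, against 15.1% and 16.2%). With voom 2 were lower and 2 higher (against 12.8% and 12.5%). MPC1, a subunit of the carrier that brings pyruvate into mitochondria, fell from 11.2 and 9.67 to 7.41 and 6.67 FPKM (-0.51, limma adjusted p = 0.0373). ACLY, which makes cytosolic acetyl-CoA from citrate, fell from 101 and 105 to 66.6 and 68.0 FPKM (-0.60, limma adjusted p = 0.0103). ME2, a mitochondrial malic enzyme that forms pyruvate, rose from 8.44 and 8.35 to 11.6 and 11.1 FPKM (0.39, limma adjusted p = 0.0282).

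Transcription factors and coactivators known to act on PDK genes were 3 lower and 1 higher of 16 tested (6.11% and 6.16% of all genes tested), with a median log2FC of -0.02. At an unadjusted p-value under 0.05 they were 4 lower and 1 higher (limma, against 15.1% and 16.2%). With voom 5 were lower and 1 higher (against 12.8% and 12.5%). PPARGC1A, a coactivator that raises PDK4 transcription in muscle and liver, fell from 2.84 and 2.64 to 0.981 and 0.815 FPKM (-0.98, limma adjusted p = 0.0189), on 101 to 357 reads. PPARA, a fatty acid-sensing receptor that binds with it, fell from 2.74 and 2.39 to 1.04 and 1.07 FPKM (-0.79, limma adjusted p = 0.0262). These 2 genes stood near the limit on low FPKM, and PPARA and PPARGC1A both passed in 8 of 9 alternatives with all 4 libraries. MYC fell from 77.7 and 83.9 to 57.7 and 62.7 FPKM (-0.42, limma adjusted p = 0.0301), and EPAS1, which encodes HIF-2 alpha, rose from 17.0 and 17.7 to 25.3 and 24.6 FPKM (0.50, limma adjusted p = 0.0158). HIF1A, with 17.6 and 16.5 FPKM in NC and 17.3 and 16.8 in SKA3-KD, had a log2FC of 0.00 (limma adjusted p = 0.992). It is named here although it did not pass since PDK1 is its known target. These values are of mRNA and do not give its protein level, and its part in the PDK1 values was not tested.

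Of 14 tested PPAR and FOXO target genes outside the complex, a group to which PDK4 is usually counted, 0 fell and 3 rose by limma. Of all genes tested, 6.11% fell and 6.16% rose. At an unadjusted p-value under 0.05 the 14 were 3 lower and 4 higher (limma, 15.1% and 16.2% of all genes tested). With voom they were 1 lower and 4 higher (12.8% and 12.5% of all genes tested). ANGPTL4, a secreted inhibitor of lipoprotein lipase, rose from 3.10 and 2.95 to 5.50 and 8.44 FPKM (0.96, limma adjusted p = 0.0374), and its SKA3-KD libraries stood well apart. CPT1A, which admits fatty acids to mitochondria, rose from 38.0 and 37.1 to 50.7 and 47.0 FPKM (0.37, limma adjusted p = 0.0302). CITED2, a transcriptional coregulator, rose from 24.6 and 26.6 to 35.1 and 38.6 FPKM (0.51, limma adjusted p = 0.0237).

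HIF-inducible genes outside the complex, to which PDK1 is usually counted, were 2 lower and 0 higher of 18 tested. Over all genes tested these shares were 6.11% and 6.16%, and the median log2FC of the 18 was -0.26. Without SKA3-KD 1 this median was -0.15 and without SKA3-KD 2 it was -0.45. At an unadjusted p-value under 0.05 they were 8 lower and 0 higher (limma), where 15.1% of all genes tested were lower and 16.2% higher, and with voom 11 lower and 0 higher, where these shares were 12.8% and 12.5%. CA12, a membrane carbonic anhydrase, fell from 7.88 and 7.75 to 2.39 and 2.83 FPKM (-1.29, limma adjusted p = 0.00812). P4HA1, a collagen prolyl hydroxylase, fell from 63.6 and 58.0 to 24.9 and 36.3 FPKM (-0.99, limma adjusted p = 0.0330), with SKA3-KD 1 below SKA3-KD 2 as in PDK1. The mitochondrial sirtuins, among them deacetylases of metabolic enzymes, were 0 of 2 past the threshold in each direction by limma, at an unadjusted p-value under 0.05 and with voom.

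**Figure D5:**
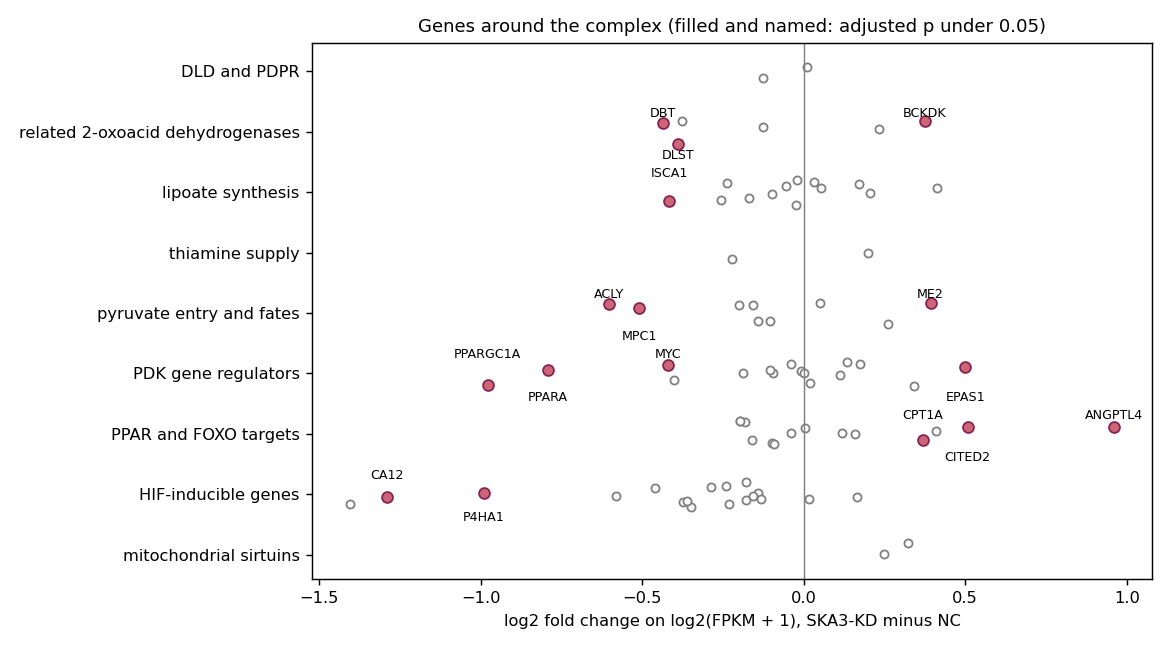
Log2FC on log2(FPKM + 1) (x axis, SKA3-KD minus NC) of each tested gene of the fixed lists around the complex, 1 row per list, with points spread vertically for legibility. Filled and named points passed an adjusted p-value of 0.05: 10 to the left and 6 to the right of 0.

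Genes whose exons overlap those of the 10, or are copies of them, were looked at because the use of strand in the counting is not stated. The antisense gene AC078883.1, which shares 445 exonic bases with PDK1, held 12 and 5 NC reads and 4 and 1 SKA3-KD reads, against 267 to 605 for PDK1. SAMD14, which shares 2113 exonic bases with PDK2 on the opposite strand, held at most 1 read in any library, against 68 to 107 for PDK2. MAP3K15, opposite PDHA1, and the pseudogene PDHA1P1 held at most 15 and 1 reads in any library, where PDHA1 held 1993 or more. PIH1D2 and APIP, opposite DLAT and PDHX, stood at 0.788 to 1.35 and 3.37 to 4.59 FPKM and did not pass the test (limma adjusted p = 0.374 and 0.326). LAMB1, at 25.9 to 30.9 FPKM, shares 70 exonic bases with DLD. The antisense gene AC009060.1 shares 2036 exonic bases with PDPR. It held 28 and 21 NC reads and 19 and 9 SKA3-KD reads, against 170 to 237 for PDPR. An antisense gene that shares 360 exonic bases with PDHB is not analysed here, so reads of PDHB and of that gene cannot be told apart.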

How the data were processed

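The 4 libraries came from TU-177 cells, 2 NC and 2 SKA3-KD, grouped by their titles. The authors deposited FPKM values per gene, and the submitters' processing notes name the build hg19 and Bowtie2 2.2.8, HISAT2, StringTie 1.3.1 and Cuffdiff 2.1.1, without roles. FPKM is already divided by gene length and library size, differences in composition remain, and assignment of overlapping reads is not given in the sources used here. Ensembl identifiers were looked up in GENCODE 29 (27199 of 28729 matched) for symbols, exon lengths and positions, which are those of GRCh38, another build than hg19.

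SKA3-KD was compared with NC by limma 3.58.1 (R 4.3.3; lmFit, then eBayes with its trend option) on log2(FPKM + 1) over genes with a mean of at least 1 FPKM. This scale understates changes of low genes. Benjamini-Hochberg adjusted p-values under 0.05 passed. Whole reads were recovered from the FPKM steps (tolerance 0.01) for 61.3% of genes tested with the GENCODE exon length, and for 38.6% from proportions between libraries, among them PDK1, PDK3 and PDP2, whose reads may be off by a whole factor. Their sums reached 110% to 112% of the library sizes. Replicates differed by more than counting noise (chi-square per degree of freedom 4.11 in NC and 4.02 in SKA3-KD). Steps were tested on simulated data. The genes named were the 10 members, SKA3, DLD, PDPR and list genes past the threshold; HIF1A was added after its values were seen. Members and lists were chosen with earlier results of these data known. LDHA stands in 2 lists. PDHA2, SLC19A3 and TXNIP are not analysed here. Python 3.11.15, scipy 1.17.1 and pandas 2.3.3 were used for the rest.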

Additional observations from a re-analysis of the deposited data

How the results depend on the processing

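PDK4 was lower under each alternative, with log2 fold changes from -1.95 to -1.79 with all 4 libraries, PDHB from -0.65 to -0.56 and PDP1 higher from 0.52 to 0.67. The count of the 10 genes that were lower moved from 2 to 1 without the filter and to 3 with voom and by unadjusted p-values. The count that were higher moved from 1 to 0 without the filter, at a mean FPKM of at least 5 (which leaves 5 of them), with median-of-ratios scaling, without the trend and with the replicate block, and to 2 with the GC and length correction and by unadjusted p-values. Over all genes (772 lower, 779 higher), counts were 81 and 48 without the filter, 381 and 312 without the trend, 1180 and 1233 with the GC and length correction, 1619 and 1578 with voom, 1912 and 2046 by unadjusted p-values under 0.05, and 1356 and 1442 at an adjusted p-value under 0.1. Of the list genes (10 lower, 6 higher), they were 2 and 0 without the filter, 5 and 1 without the trend and 23 and 11 by unadjusted p-values, with 24 lower with voom. With 1 library left out, all genes ranged from 0 to 135 lower and 0 to 46 higher, the 10 genes from 0 to 1 lower and 0 higher, and list genes from 0 to 3 and 0 to 1; a single library then stands for its group and is assumed to vary like the other. The cause of the other moves was not tested. PDK4's share of the kinases, lower by a difference of -23.3 percentage points, ranged from -26.4 to -20.1. DLD turned to -0.0040 with median-of-ratios scaling, -0.0056 with quantile normalization and -0.0084 with voom, and ranged from -0.0530 to 0.0706 with 1 library left out. The log2FC values of PDK2 (-0.115 to 0.0322), PDP2 (-0.252 to 0.0739) and PDHX (-0.158 to 0.0582) also changed sign with 1 library left out. The numbers of the replicates mark nothing shared in the labels, and replicate differences correlated by 0.10 between the groups, across genes that are not independent. With the replicate block 965 genes were lower and 1002 higher, and among the genes named PDP1 and ISCA1 lost their calls. Depth limits PDK2, PDP1 and PDP2 most.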
